A study of Mus musculus with 10 samples.

Results

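The genes described here encode the NF-kB transcription factors and the proteins that hold them back, 10 genes of the 18051 that were tested on the arrays. They were taken by name: every array probe that is not a control and carries the name Nfkb1, Nfkb2, Rel, Rela, Relb, Nfkbia, Nfkbib, Nfkbie, Nfkbiz or Bcl3. This gave 14 probes, and all 10 genes passed the filter on dim probes. The 5 subunits are Nfkb1, Nfkb2, Rel, Rela and Relb, the 3 classical inhibitors are Nfkbia, Nfkbib and Nfkbie, and the other 2 genes, Nfkbiz and Bcl3, encode inhibitor-like proteins of the nucleus.

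NF-kB is a family of dimeric transcription factors that switch on inflammatory genes in macrophages. In resting cells the dimers are kept in the cytoplasm by inhibitors of the IkB class. Lipopolysaccharide (LPS), a component of bacterial cell walls, signals through a receptor on the cell surface to the IkB kinase, which marks the inhibitors for destruction and frees the dimers. Several of the inhibitors and subunits are themselves NF-kB target genes, so the pathway sets its own brakes. Glucocorticoids bind the glucocorticoid receptor, a nuclear receptor that raises some genes and lowers many inflammatory ones.

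RNA was measured in RAW264.7, a mouse macrophage-like cell line, on 10 one-colour arrays in 5 groups of 2. The group labelled EtoH is taken as the solvent control with no glucocorticoid added. The other groups received dexamethasone (Dex) or fluticasone furoate (FF), both synthetic glucocorticoids used as drugs, or VSG22 or VSGC12, glucocorticoids known here by code name, each at 100 nM and 1 hour before LPS at 1 µg/ml for 16 hours. The labels do not say whether EtoH cells were given LPS, and no group is described as unstimulated. How LPS itself moved these genes was therefore not measured. If the EtoH cells had no LPS, every difference from EtoH holds LPS as well as glucocorticoid, and their effects cannot be told apart. The labels also do not say that the replicates came from separate cultures, so p-values measure only the spread between these samples, which may be technical.

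Values are log2 signals relative to the array's own 75th percentile, so 0 is the 75th percentile of that array. That percentile ran from 315 to 428 units of processed signal, and 40.1% to 44.4% of probes were well above background. Replicates correlated at 0.982 in Dex and at 0.993 to 0.995 in the other groups, across the genes tested. All 8 macrophage markers were well above background on all 10 arrays, with a summed level (in multiples of the 75th percentile) of 343 to 347 in EtoH and 460 to 513 with a glucocorticoid. Of 24 markers of other cell types, 16 were well above background on no array, among them all 4 B cell and all 4 epithelial markers, and 5 were on every array. The summed neutrophil markers ran from 55.7 to 71.2 in EtoH and from 70.9 to 164 with a glucocorticoid, the T cell markers from 17.0 to 17.0 and from 17.1 to 18.6, and the endothelial markers, which rest on Kdr, from 8.12 to 8.84 and from 4.81 to 7.0; their part in the results below was not tested. The fibroblast markers stayed between 0.216 and 0.477 on all arrays. Fkbp5, a chaperone gene induced by the glucocorticoid receptor, was higher with the 4 glucocorticoids by 2.11 ± 0.10 (log2, SE; adjusted p = 2.32e-05), whereas Tsc22d3, another receptor target, differed by 0.13 (adjusted p = 0.168) and the receptor gene Nr3c1 by -0.15 (adjusted p = 0.138).

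Each gene was represented by its brightest probe, and the probes decide what part of an mRNA is read. The 60-base probes below are shown for Nfkb2 and Nfkbia, of which the first fell and the second did not pass the test, and for the second Nfkb1 probe, whose values differed from those of the first. Positions are on mm9, as the array files give them, and exon and UTR annotation of that build was not used here. The Nfkb2 probe spans chr19:46386146-46386285 on the plus strand, 140 bases of genome. The Nfkbia probe spans chr12:56590945-56591440 on the minus strand, 496 bases of genome. Both therefore bridge sequence that is absent from the probe. The second Nfkb1 probe lies at chr3:135254550-135254609 on the minus strand.
Nfkb2 probe: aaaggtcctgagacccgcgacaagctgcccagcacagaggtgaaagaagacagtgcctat
Nfkbia probe: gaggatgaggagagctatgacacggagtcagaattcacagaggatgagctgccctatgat
Nfkb1 second probe: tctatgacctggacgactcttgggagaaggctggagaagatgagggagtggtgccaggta
The first Nfkb1 probe lies at chr3:135247621-135247680 on the same strand and has 21.7% G and C, against 55% in the second. All 14 probes were well above background on all 10 arrays.

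The mean of the 4 glucocorticoid groups differed from EtoH in 6 of the 10 genes at an adjusted p under 0.05. Nfkb1 rose, and Nfkb2, Rela, Nfkbib, Nfkbie and Nfkbiz fell. Rel, Relb, Nfkbia and Bcl3 did not pass the test. In RNA from whole cultures, fewer cells with a transcript and less of it per cell cannot be told apart. The background of such calls was large: 21.6% of all genes tested were called higher in this comparison and 22.5% lower. So 1 of 10 members higher is below the background share, and 5 of 10 lower is above it. The median change of the 10 genes was -0.16, against -0.0040 over all genes. Without EtoH replicate 2 the count was 2 (Nfkb1 and Nfkb2), and without EtoH replicate 1 it was 4; the count over all genes fell from 7961 to 4670 and 4751. With each array's median subtracted in place of its 75th percentile the count was 1 (Nfkb1), where the median of all genes was 0.12 and 70.3% of calls were higher, against 49.0% in the values given here, and without the filter on dim probes it was 3.

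Nfkb1 encodes p105, the precursor that is processed to the p50 subunit. Its level was 2.05 and 2.34 on the EtoH arrays. It was 2.93 and 2.79 with Dex, 2.79 and 2.81 with FF, 2.71 and 3.04 with VSG22, and 2.92 and 2.81 with VSGC12. All 8 glucocorticoid arrays lay above both EtoH arrays. For this gene and those below, the share of all genes whose arrays separate in this way is not given here. The mean of the 4 was higher by 0.65 ± 0.11 (SE; 95% interval 0.39 to 0.92), which is 1.57-fold, with an adjusted p of 0.00397. The difference was 0.79 on the first slide and 0.52 on the second. The call held under the 22 alternative settings that keep 1 value per gene, with changes from 0.43 to 0.80, but the second Nfkb1 probe fitted alone gave 0.21 and was not called (adjusted p = 0.323).

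Nfkb2 encodes p100, the precursor of p52 and the centre of the non-canonical branch of the pathway. Its level was 3.96 and 4.04 on the EtoH arrays. It was 3.62 and 3.51 with Dex, 3.23 and 3.33 with FF, 3.55 and 3.50 with VSG22, and 3.37 and 3.26 with VSGC12. Every glucocorticoid array lay below both EtoH arrays, so the 2 precursor genes moved in opposite directions. The fall was -0.58 ± 0.07 (SE; 95% interval -0.74 to -0.42), or 1.49-fold, with an adjusted p of 0.000797. It was -0.51 and -0.64 within the slides. With array medians the change was -0.45 and was not called (adjusted p = 0.127).

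The difference between the 2 genes within an array does not depend on the constant by which that array is scaled. Relative to the EtoH mean, Nfkb1 minus Nfkb2 was -0.10 and 0.10 on the EtoH arrays. On the glucocorticoid arrays it ran from 0.96 to 1.36, with a mean of 1.23, which is a 2.35-fold shift in favour of Nfkb1. The smallest value, 0.96, was on VSG22 replicate 1. With the second Nfkb1 probe in place of the first, the mean shift was 0.79 and the arrays ran from 0.48 to 1.07, still above the EtoH arrays at -0.057 and 0.057. This shows unequal change of the 2 transcripts, not which of them moved. In these same data Nfkb1 had the largest rise of the members (0.65) and Nfkb2 the deepest fall (-0.58). Separation of their difference from EtoH follows from those 2 changes, so it is no further test of them. The second Nfkb1 probe changed by 0.21, so most of the shift of 0.79 is that of Nfkb2. The share of all gene pairs that separate in this way is not given here. The signal of one probe cannot be set against that of another as an amount of RNA.

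**Figure D1:**
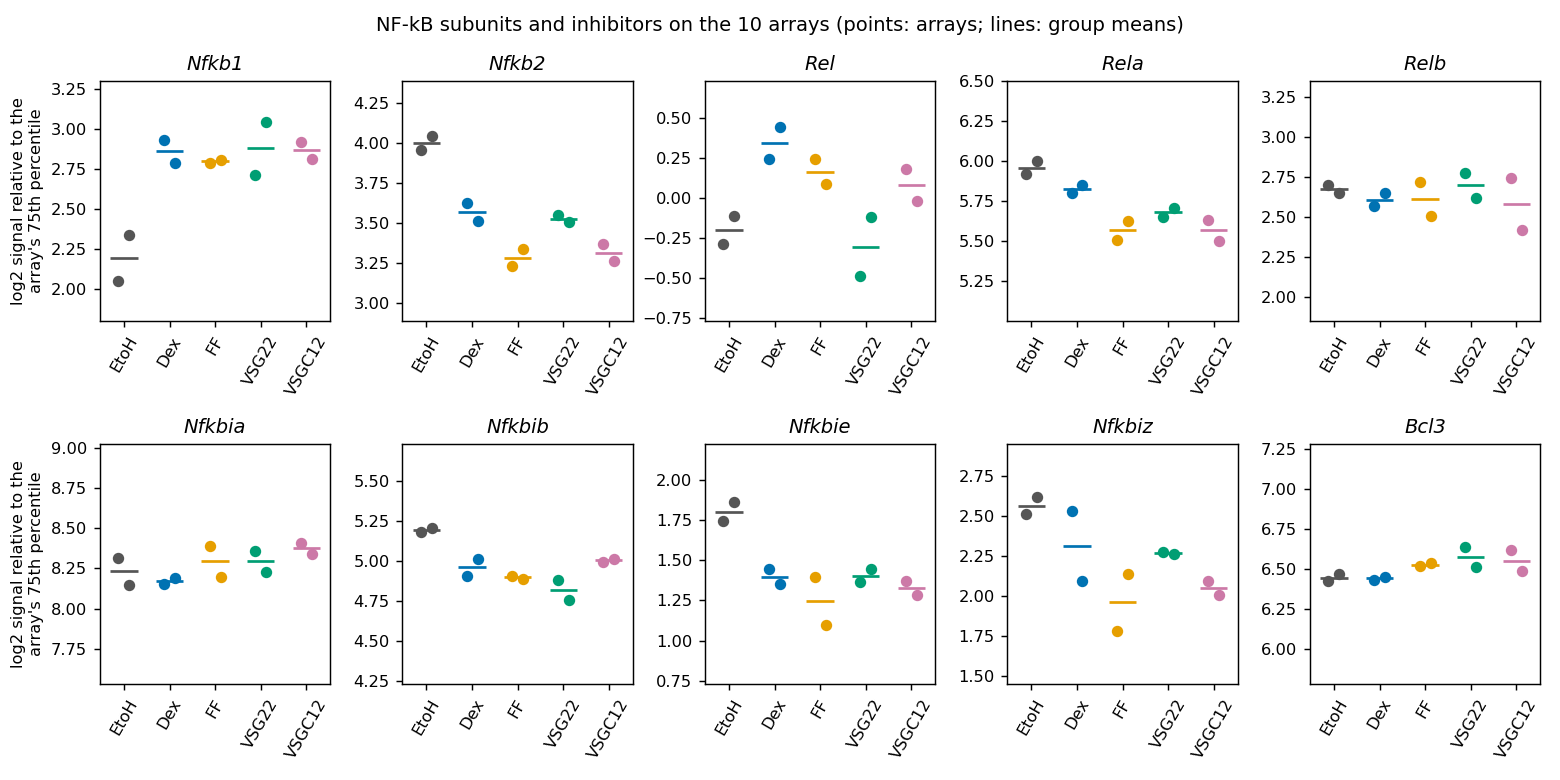
Log2 signal relative to the array's 75th percentile (y axis) for the 10 genes in each of the 5 groups (x axis), 1 point per array and a line at the group mean, with the same height of y range in each panel. Nfkb1 is higher on all 8 glucocorticoid arrays (2.71 to 3.04) than in EtoH (2.05 and 2.34), Nfkb2 is lower on all of them (3.23 to 3.62 against 3.96 and 4.04), and Nfkbia stays between 8.15 and 8.41 throughout.

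Rela encodes p65, the main transactivating subunit. Its level was 5.92 and 6.00 in EtoH. It was 5.80 and 5.85 with Dex, 5.51 and 5.63 with FF, 5.66 and 5.71 with VSG22, and 5.63 and 5.50 with VSGC12. All glucocorticoid arrays lay below both EtoH arrays, with the Dex arrays closest to them. The mean of the 4 fell by 0.30 ± 0.07 (SE; 1.23-fold; adjusted p = 0.0111). Without EtoH replicate 2 the change was -0.26 and was not called (adjusted p = 0.0983), nor was it with array medians (-0.18, adjusted p = 0.567) or without the filter on dim probes (adjusted p = 0.0854).

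Rel encodes c-Rel, a subunit prominent in lymphoid and myeloid cells. Its level was -0.29 and -0.11 in EtoH. It was 0.24 and 0.44 with Dex, 0.24 and 0.09 with FF, -0.49 and -0.12 with VSG22, and 0.18 and -0.02 with VSGC12. The Dex, FF and VSGC12 arrays lay above both EtoH arrays, and both VSG22 arrays lay below the higher of them. For the mean of the 4 the difference was 0.27 ± 0.12 (95% interval -0.02 to 0.56; adjusted p = 0.113). Relb, the partner of p52 in the non-canonical branch, was at 2.70 and 2.65 in EtoH and between 2.42 and 2.78 with a glucocorticoid, so the groups overlapped. Its difference was -0.050 ± 0.11 (95% interval -0.30 to 0.20; adjusted p = 0.723).

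Nfkbia encodes IkBα, the inhibitor that NF-kB itself induces and that is remade after each activation. Its level was 8.32 and 8.15 in EtoH. It was 8.15 and 8.19 with Dex, 8.39 and 8.20 with FF, 8.36 and 8.23 with VSG22, and 8.41 and 8.34 with VSGC12. The glucocorticoid arrays lay on both sides of the EtoH arrays. The mean of the 4 differed from EtoH by 0.053 ± 0.08 (SE; adjusted p = 0.626). The 95% interval, -0.14 to 0.25, holds no rise as large as that of Nfkb1 and no fall as large as that of Nfkb2 or Nfkbie.

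Nfkbib encodes IkBβ, an inhibitor that is replaced more slowly. Its level was 5.18 and 5.21 in EtoH and ran from 4.76 to 5.01 with a glucocorticoid, with a median of 4.91, so the groups did not overlap. It fell by 0.27 ± 0.06 (SE; 1.21-fold; adjusted p = 0.0113). Without EtoH replicate 1 the change was -0.29 (adjusted p = 0.0656) and without EtoH replicate 2 it was -0.26 (adjusted p = 0.0853), so both EtoH arrays were needed for the call. It was also not called with array medians (-0.15, adjusted p = 0.622) or without the filter on dim probes (adjusted p = 0.0965).

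Nfkbie encodes IkBε, an inducible inhibitor of p65 and c-Rel. Its level was 1.74 and 1.86 in EtoH. It was 1.44 and 1.35 with Dex, 1.40 and 1.09 with FF, 1.36 and 1.44 with VSG22, and 1.37 and 1.28 with VSGC12. All 8 glucocorticoid arrays lay below both EtoH arrays. The fall was -0.46 ± 0.09 (SE; 95% interval -0.68 to -0.24; adjusted p = 0.00728), or 1.38-fold, and was -0.35 and -0.57 within the slides. Of the 3 classical inhibitors, 2 fell and Nfkbia did not pass the test. The Nfkbie call was lost without EtoH replicate 2 (-0.40, adjusted p = 0.0727), with normexp background correction (-0.28, adjusted p = 0.0859) and with array medians (-0.34, adjusted p = 0.257).

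Nfkbiz encodes IkBζ, a nuclear protein that NF-kB needs at some of its secondary targets, such as Il6. Its level was 2.51 and 2.62 in EtoH. It was 2.53 and 2.09 with Dex, 1.78 and 2.14 with FF, 2.28 and 2.26 with VSG22, and 2.09 and 2.0 with VSGC12. Dex replicate 1 reached the EtoH range, and the other 7 glucocorticoid arrays lay below it. The fall, -0.41 ± 0.13 (SE; 1.33-fold), was close to the threshold (adjusted p = 0.043). With the slide as a block the adjusted p was 0.0604, and the call was lost in 11 of 22 alternatives, among them the omission of EtoH replicate 1 (adjusted p = 0.128), EtoH replicate 2 (0.219), FF replicate 1 (0.057), VSG22 replicate 1 (0.0752) or 2 (0.0759), and VSGC12 replicate 1 (0.0648) or 2 (0.0756). Bcl3, which binds p50 and p52 dimers in the nucleus, was at 6.42 and 6.47 in EtoH and between 6.43 and 6.64 with a glucocorticoid. Its difference was 0.078 ± 0.06 (95% interval -0.08 to 0.23; adjusted p = 0.358).

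**Figure D2:**
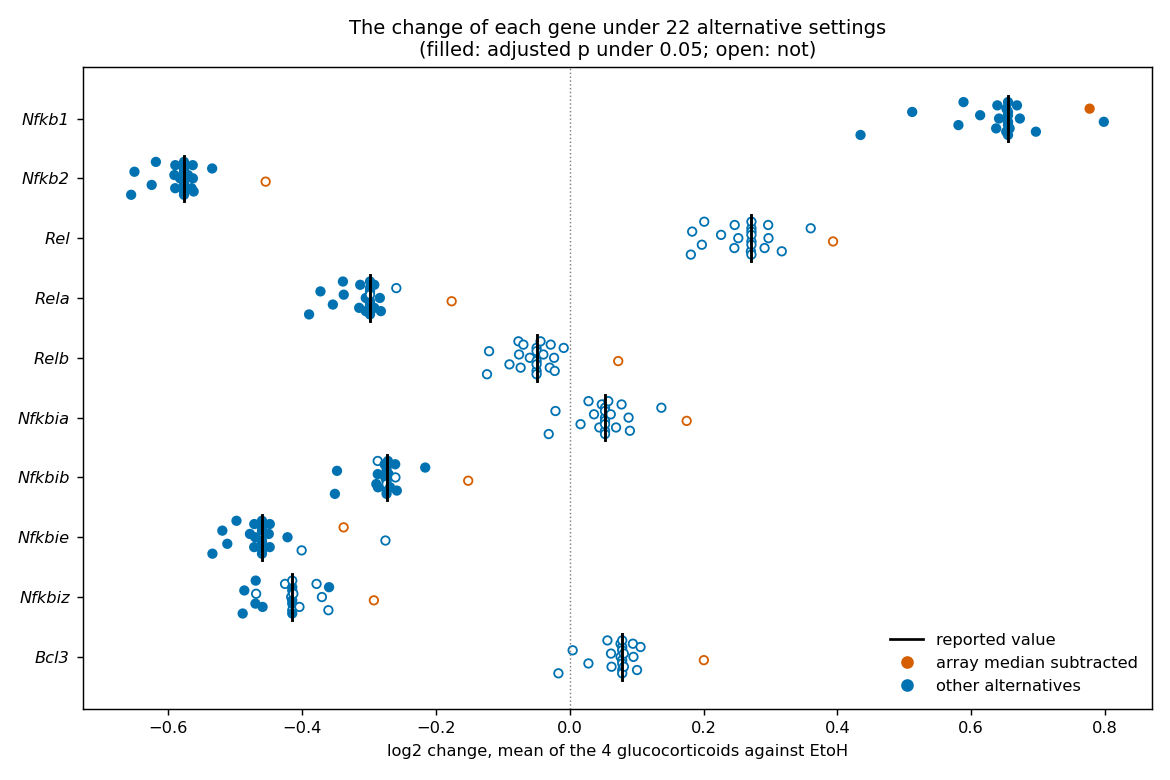
Log2 change of each gene for the mean of the 4 glucocorticoids against EtoH (x axis) under the reported processing (black bars) and 22 alternatives (points), filled where the adjusted p was under 0.05. Nfkb1 is filled throughout, from 0.43 to 0.80, Nfkb2 is open only with array medians (-0.45), and Nfkbiz is open in 11 of 22.

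The 4 compounds were compared with the same 2 EtoH arrays, so their results are not independent and are given side by side. Nfkb1 rose with each: by 0.66 ± 0.14 (SE) with Dex (adjusted p = 0.0146), 0.60 with FF (0.0174), 0.68 with VSG22 (0.0124) and 0.67 with VSGC12 (0.012). Without EtoH replicate 1 these were 0.52, 0.46, 0.54 and 0.53 and none was called (adjusted p = 0.0802, 0.0907, 0.0703 and 0.0668). With the mean of both probes the rise was 0.28 with FF (adjusted p = 0.147) and 0.41 with VSGC12 (adjusted p = 0.0573). Nfkb2 fell with each: by 0.43 with Dex (adjusted p = 0.0108), 0.72 with FF (0.00131), 0.47 with VSG22 (0.00696) and 0.69 with VSGC12 (0.00153), each ± 0.09 (SE). These 2 genes and Nfkbie were the members called with every compound. The share of all genes called with every compound is not given here, so this count has no background beside it. The fall of Nfkbie was -0.41 with Dex (adjusted p = 0.0379), -0.56 with FF (0.011), -0.40 with VSG22 (0.0403) and -0.48 with VSGC12 (0.02), each ± 0.12 (SE). These Nfkbie calls were lost in 12 of 21 alternatives with Dex, 4 of 22 with FF, 9 of 22 with VSG22 and 7 of 22 with VSGC12. With normexp background correction the change was -0.15 with Dex (adjusted p = 0.434), -0.37 with FF (0.0816), -0.26 with VSG22 (0.214) and -0.32 with VSGC12 (0.127). For Nfkb2 the calls lost were 4 of 21 with Dex, 1 of 22 with FF, 2 of 22 with VSG22 and 1 of 22 with VSGC12.

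The remaining calls were made with some compounds. With Dex, 2 of the 10 genes were called higher (Nfkb1 and Rel) and 2 lower (Nfkb2 and Nfkbie), where 16.5% and 15.7% of all genes were. The Rel difference with Dex was 0.54 ± 0.15 (SE; adjusted p = 0.0366), and it was not called without EtoH replicate 1 (0.45, adjusted p = 0.162), EtoH replicate 2 (0.63, 0.0757), Dex replicate 2 (0.44, 0.15) or either FF array (0.54, 0.052). That Rel call was lost in 10 of 21 alternatives in all. With FF, 1 gene was called higher and 5 lower, where 17.9% and 19.2% of all genes were. The 5 were Nfkb2, Rela (-0.39, adjusted p = 0.0123), Nfkbib (-0.30, 0.0243), Nfkbie and Nfkbiz (-0.60, 0.0316). With FF the call was lost in 4 of 22 alternatives for Rela, 6 of 22 for Nfkbib and 8 of 22 for Nfkbiz. With VSG22, 1 gene was called higher and 4 lower, where 16.1% and 14.5% of all genes were; Rela differed by -0.28 (adjusted p = 0.0451) and Nfkbib by -0.37 (0.0118). The Rela call with VSG22 was lost with the slide as a block (adjusted p = 0.0505) and in 15 of 22 alternatives in all. The Nfkbib call with VSG22 was lost in 6 of 22. With VSGC12, 1 gene was called higher and 3 lower, where 17.2% and 18.3% of all genes were, and Rela was lower by 0.39 (adjusted p = 0.0123). This Rela call was lost in 4 of 22 alternatives. Nfkbiz was not called with VSGC12 (-0.51, adjusted p = 0.0541) but was called in 10 of 22 alternatives. Leaving out an array moved these counts to between 1 and 3 for Dex, 2 and 6 for FF, 1 and 4 for VSG22 and 2 and 5 for VSGC12. Without EtoH replicate 1 they were 1, 3, 1 and 2, and without EtoH replicate 2 they were 1, 2, 2 and 2, in the same order. A compound's own array also mattered: the count was 1 without Dex replicate 2, 2 without FF replicate 1, 3 and 1 without VSG22 replicates 1 and 2, and 2 without either VSGC12 array, and that of VSG22 was 3 without either VSGC12 array.

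**Figure D3:**
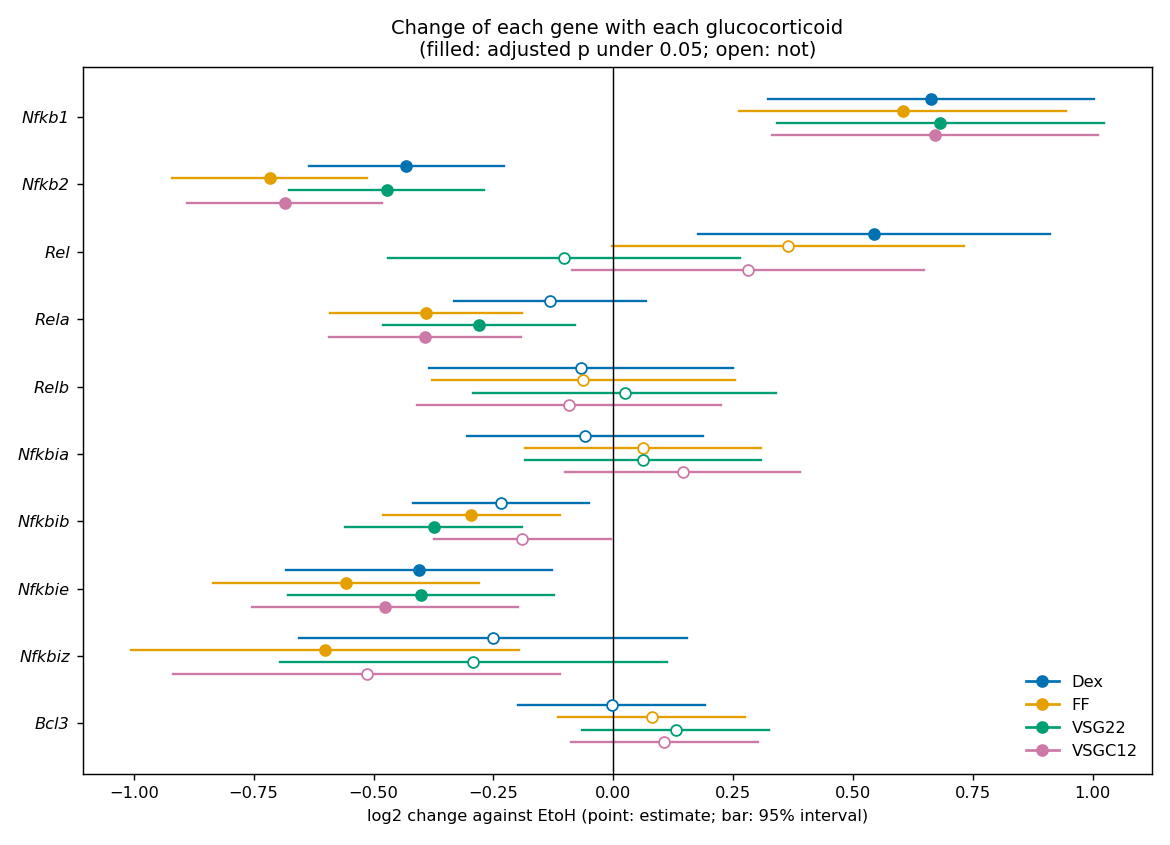
Log2 change against EtoH (x axis) of each gene with each of the 4 compounds, as the estimate with its 95% interval, filled where the adjusted p was under 0.05. Nfkb1 lies at 0.60 to 0.68 and Nfkb2 at -0.72 to -0.43 with all 4, whereas Rel spreads from -0.10 (VSG22) to 0.54 (Dex).

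All 6 pairs of glucocorticoids were also compared with each other, and 0 of the 10 genes were called in any of them. The pairs called few genes at all: 0.366% of those tested for FF against Dex, 0.549% for VSG22 against Dex, 0.394% for VSGC12 against Dex, 0% for VSG22 against FF, 0.00555% for VSGC12 against FF and 0% for VSGC12 against VSG22. A limma F-test for any difference among the 4 called 0.255% of genes and 0 of the 10. At an unadjusted p under 0.05 the pairs gave 2, 1, 2, 2, 0 and 3 members, in the order above, and the F-test gave 2. The widest gap was that of Rel, lower with VSG22 than with Dex by -0.65 (95% interval -1.01 to -0.28; adjusted p = 0.125). For Nfkb2 the order of levels was EtoH 4.0 ± 0.06 (SD, n = 2), Dex 3.57 ± 0.08, VSG22 3.53 ± 0.03, VSGC12 3.31 ± 0.07 and FF 3.28 ± 0.07. Of neighbours in that order, EtoH and Dex differed in the test above, and the other neighbours did not pass theirs. FF was below Dex by -0.29 (95% interval -0.49 to -0.08; adjusted p = 0.242) and VSGC12 below Dex by -0.25 (adjusted p = 0.268). Rela showed gaps of -0.26 for both, with adjusted p of 0.266 and 0.254. These intervals do not include 0, so the adjusted p values do not show that the compounds act alike on Nfkb2 and Rela.

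For the 3 genes with several probes, the probes gave the change more than once; this comparison was chosen after the data were seen. The second Nfkb1 probe was at 1.48 to 1.68 in EtoH and ran from 1.29 to 2.26 with a glucocorticoid, so its groups overlapped. Its change for the mean of the 4 was 0.21 ± 0.16 (SE; 95% interval -0.17 to 0.60; adjusted p = 0.323 over all probes). By compound it was 0.54 with Dex, -0.037 with FF, 0.21 with VSG22 and 0.15 with VSGC12, and 0 of these were called. The 2 probes differed in their change by 0.44 ± 0.19 (95% interval -0.01 to 0.89; adjusted p = 0.149 over 5352 probe pairs). With the mean of both probes the Nfkb1 rise was 0.43 and was still called, the lowest of its 22 alternatives. So the size of the Nfkb1 rise rests on the brighter probe, and the second probe does not show it with FF.

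Nfkbib has 3 probes. The second fell by 0.37 ± 0.08 (SE; adjusted p = 0.00931), in the direction of the first. The third was dim, at -0.82 to -0.76 in EtoH and -1.35 to -0.34 with a glucocorticoid, and its interval ran from -0.32 to 0.31 (adjusted p = 0.987). The first probe's change differed from that of the second by 0.098 (adjusted p = 0.524) and from that of the third by -0.27 (adjusted p = 0.256). The second Relb probe changed by -0.10 (adjusted p = 0.478), and neither Relb probe was called.

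**Figure D4:**
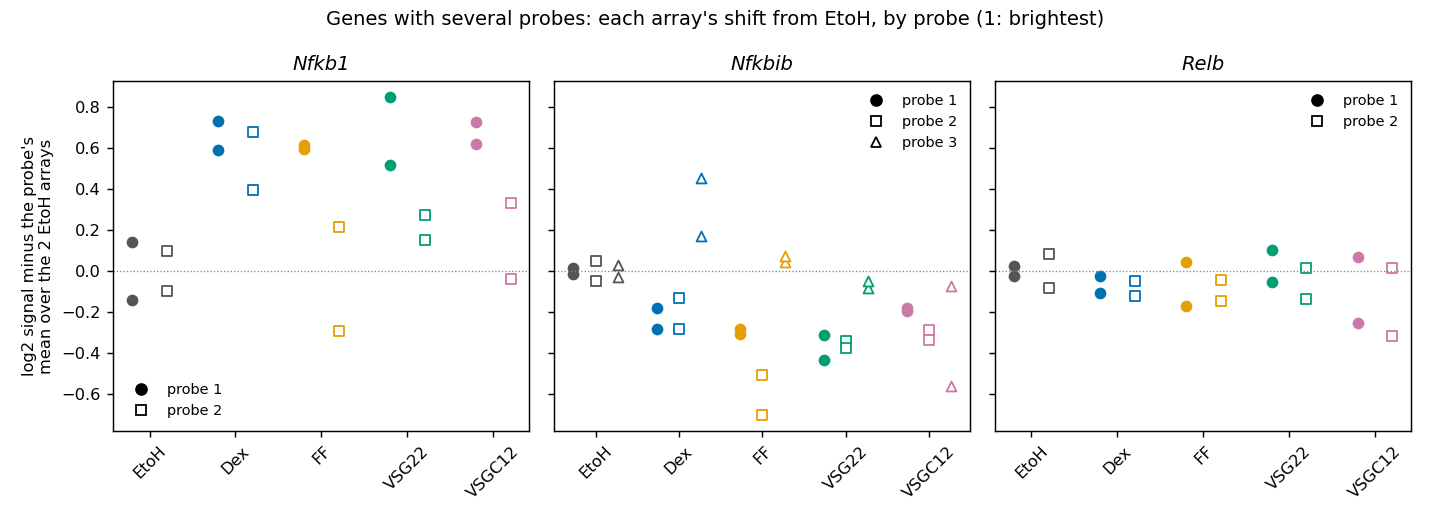
Log2 signal of each array minus the EtoH mean of the same probe (y axis) for the 3 genes with more than 1 probe, by group (x axis) and by probe (symbols, 1 being the brightest). The brighter Nfkb1 probe is above both EtoH arrays on all 8 glucocorticoid arrays, whereas the second, at -0.037 on average with FF, overlaps EtoH.

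Around these 10 genes, the pathway was described with 4 lists. Among 11 genes of the IkB kinase complex and the kinases above it, 3 were higher, 3 were lower and 5 were not called for the mean of the 4, with a median change of 0.026. Over all genes 21.6% were higher and 22.5% lower, so these counts are near the background. Tbk1, a kinase that also leads to interferon, fell by 0.39 (adjusted p = 0.0015), and Tab3, an adaptor of the kinase TAK1, by 0.45 (0.00486). Ikbkg, the regulatory subunit NEMO of the kinase complex, fell by 0.26 (adjusted p = 0.0105), but its probe sits where neighbouring spots were bright only on a Dex array, called a patch here; 7.89% of all probes sit in one, and 0 of the 14 described here do. Map3k14, the kinase of the non-canonical branch that triggers p100 processing, rose by 0.22 (adjusted p = 0.0168).

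Among 8 TRAF and cIAP adaptor genes, which link receptors to those kinases, 1 rose and 3 fell, with a median of -0.15, where 21.6% and 22.5% of all genes did. Traf5 fell by 0.94 (adjusted p = 0.00017), Traf1, a known NF-kB target, by 0.80 (0.000497) and Traf6, the adaptor of Toll-like receptors, by 0.54 (0.00176, with a probe in a patch). Traf3, which restrains the non-canonical kinase, rose by 0.58 (adjusted p = 0.00184).

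Among 12 ubiquitin editors and other brakes, 4 rose, 3 fell and 5 were not called, with a median of 0.083, where 21.6% of all genes rose and 22.5% fell. Nfkbid, another nuclear inhibitor-like gene, rose by 0.70 (adjusted p = 0.000733), unlike Nfkbiz, which fell. Tnfaip3, which encodes the ubiquitin editor A20, rose by 0.45 (adjusted p = 0.00302). It was called with FF (0.47), VSG22 (0.57) and VSGC12 (0.55) and not with Dex (0.21, adjusted p = 0.119). A call with some compounds and not with another does not show that they differ. Tests between compounds are not given here for this gene. Commd1 rose by 0.22 (adjusted p = 0.0241), and Otulin, a deubiquitinase of linear chains, fell by 0.48 (0.0036).

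Of 16 widely used NF-kB target genes, 14 were measured. For the mean of the 4, 11 fell, 2 rose and 1 (Icam1) was not called, against backgrounds of 22.5% lower and 21.6% higher, and the median was -0.60. Il1b, a pro-inflammatory cytokine, fell by 2.09 (adjusted p = 1.11e-05, probe in a patch), Nos2, the inducible nitric oxide synthase, by 1.49 (1.99e-05), the chemokine Ccl5 by 1.23 (5.07e-05) and Ptgs2, the inducible cyclooxygenase, by 1.22 (0.000212). The 2 that rose were Sod2 (0.27, adjusted p = 0.0116) and Bcl2a1d (0.33, 0.0141), a superoxide dismutase and a survival gene. By compound, 7 of the 14 fell with Dex, 9 with FF, 11 with VSG22 and 9 with VSGC12, where 15.7%, 19.2%, 14.5% and 18.3% of all genes did. In the same order 1, 2, 0 and 2 of the 14 rose in the limma fit, where 16.5%, 17.9%, 16.1% and 17.2% of all genes did. With VSG22, 2 of the 14 had a positive change at an unadjusted p under 0.05, Sod2 (0.24, adjusted p = 0.0571) and Bcl2a1d (0.28, adjusted p = 0.0738). The 4 targets named first have the lowest p of their list in this comparison. Their larger falls than those of the 10 subunit and inhibitor genes are therefore no test of a difference. Over the 14 targets the median was -0.60. Among the 10 genes it was -0.16, and the deepest fall was -0.58 (Nfkb2).

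Across the 10 arrays, which share groups and slides, some members varied together. Nfkb2 and Rela correlated at r = 0.93, and at 0.85 over the 8 glucocorticoid arrays alone. For Nfkb2 and Nfkbiz these values were 0.90 and 0.89. Nfkb2 and Nfkbie correlated at 0.88 over all arrays but at 0.44 within the glucocorticoid arrays, and Nfkb1 and Nfkb2 at -0.76 but 0.24. So the opposite movement of Nfkb1 and Nfkb2 was between EtoH and the glucocorticoid groups and was not seen among the glucocorticoid arrays. Among 17891 genes with a value on every array, those most like Nfkb1 were Tasp1, Nup160 and Slc16a10 (r = 0.98, 0.98 and 0.97). Those most like Nfkbie were Gm5881, Gm7664 and Cyp4v3, each at 0.98, and those most like Nfkbiz were Ifi207, Mfsd1 and Ncor1, also at 0.98. These are descriptions over 10 arrays.

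The promoters of the members show where NF-kB's own recognition sequence occurs. RefSeq promoters on GRCm38.p6 were matched for 7 of the 10 genes, with 9 start sites, and Nfkb1, Relb and Nfkbiz were not matched. In the 250 bases before the start, the kappaB consensus was found on either strand in 4 of the 7 genes: Nfkb2, Nfkbia, Rel and Nfkbie. It was not found in Rela, Nfkbib or Bcl3. Of all 32851 promoter windows of that length, 3.9% hold it. That share is per window, whereas a gene with several start sites, such as Nfkb2, has several windows. These 4 promoters are printed because the genes share the motif and not all were called for the mean of the 4 glucocorticoids. In that comparison Nfkb2 and Nfkbie fell, and Nfkbia and Rel did not pass the test. Capitals mark the kappaB matches, joined where they overlap. Each runs 5′ to 3′ toward the start of the gene: Nfkb2 (first of 3 start sites) at chr19:46304487-46304736 on the plus strand, Nfkbia at chr12:55492648-55492897 on the minus strand, Rel at chr11:23770970-23771219 on the minus strand and Nfkbie at chr17:45555450-45555699 on the plus strand.
Nfkb2 promoter: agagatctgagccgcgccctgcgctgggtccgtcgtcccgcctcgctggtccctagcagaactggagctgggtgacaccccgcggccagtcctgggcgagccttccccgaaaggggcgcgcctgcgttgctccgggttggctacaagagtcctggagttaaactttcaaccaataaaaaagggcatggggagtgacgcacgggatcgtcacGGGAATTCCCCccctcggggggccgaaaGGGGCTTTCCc
Nfkbia promoter: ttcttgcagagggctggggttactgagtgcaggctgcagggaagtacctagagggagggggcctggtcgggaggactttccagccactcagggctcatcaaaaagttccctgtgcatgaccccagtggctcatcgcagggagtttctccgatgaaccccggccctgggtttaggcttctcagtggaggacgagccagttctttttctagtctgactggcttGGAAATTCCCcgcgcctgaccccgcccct
Rel promoter: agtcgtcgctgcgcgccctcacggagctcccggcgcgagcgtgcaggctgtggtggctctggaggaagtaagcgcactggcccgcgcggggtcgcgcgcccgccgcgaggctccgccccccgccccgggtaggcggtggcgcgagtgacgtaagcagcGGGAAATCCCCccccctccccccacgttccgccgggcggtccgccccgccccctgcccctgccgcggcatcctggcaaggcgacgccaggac
Nfkbie promoter: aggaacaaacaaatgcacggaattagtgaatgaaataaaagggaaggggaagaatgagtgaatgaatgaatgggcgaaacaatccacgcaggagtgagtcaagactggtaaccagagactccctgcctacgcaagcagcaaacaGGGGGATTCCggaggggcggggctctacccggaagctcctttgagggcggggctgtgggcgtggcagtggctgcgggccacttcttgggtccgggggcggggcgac
The matches lie 39 to 29 and 11 to 2 bases before the start in Nfkb2, 29 to 20 in Nfkbia, 92 to 82 in Rel and 106 to 97 in Nfkbie. The AP-1 site TGANTCA was found in Nfkbie, 156 to 150 bases before the start, and at the second start of Nfkb2; 6.75% of all windows hold it on either strand. The glucocorticoid receptor half-site AGAACA was found in 0 of the 7, where 16.08% of all windows hold it, which says only that these letters are not in this window. Nfkb1, the only member called higher for the mean of the 4 glucocorticoids, was not among the promoters matched. For that mean, all called genes among the 7 fell, so whether the kappaB motif goes with direction could not be examined. Of these, Nfkb2 and Nfkbie hold it, and Rela and Nfkbib do not. Rel, which holds it, was called higher with Dex (0.54, adjusted p = 0.0366) and with no other compound.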

How the data were processed

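Per the file headers, the deposited files hold spot intensities from Agilent Feature Extraction 10.7.3.1 (Cy3, 1 colour), background-subtracted and detrended within the array and not scaled between arrays, with other columns of flags for spots above background, saturated, non-uniform or outlying. Labelling began from 150 ng of RNA per the labels. The submitters' processing notes name limma without a step. Here, non-uniform and outlying spots were dropped, the remaining spots of each probe were averaged on the log2 scale, and each array's 75th percentile was subtracted. Probes with more than 0.5 of their spots well above background on an array were taken as such there. A gene took its brightest probe among those well above background on both arrays of at least 1 group. Names came from RefSeq (GRCm38.p6), for 26413 of 55681 probes by accession, including all 14 described. All 5 groups were fitted together (lmFit and eBayes of limma 3.58.1 in R 4.3.3, without other terms; 5 residual and 1.81 prior degrees of freedom). Tests were two-sided, with Benjamini-Hochberg adjustment over genes within a comparison, a threshold of 0.05 and 95% intervals. A patch on a Dex array is a place where at least 3 of the 24 spots around were above background on that array and on no array outside Dex. The steps were tested on simulated data. The replicate number is the slide, and deviations correlated between groups at -0.04 to 0.32, so no block was fitted. The members, lists and tests were chosen with earlier results of these data known. All members were named, with up to 4 genes per list by lowest p and the 3 genes most like 3 members. The number of arrays limits the precision.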

Additional observations from a re-analysis of the deposited data

How the results depend on the processing

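Out of 10 genes, 6 were called for the mean of the 4 glucocorticoids, 4 with Dex, 6 with FF, 5 with VSG22 and 4 with VSGC12. With array medians these counts were 1, 0, 0, 0 and 1, and without the filter on dim probes 3, 0, 1, 0 and 1. Normexp background correction gave 2 with Dex and 3 with VSG22, and array weights gave 2 with Dex. Leaving out 1 array at a time gave 2 to 6, 1 to 3, 2 to 6, 1 to 4 and 2 to 5. The pairs and the F-test gave 0 under every alternative. The slide as a replicate block ended 2 calls, Nfkbiz for the mean of the 4 (adjusted p = 0.0604) and Rela with VSG22 (adjusted p = 0.0505), and changed no other call of a member; the count over all genes was 8338, against 7961. Beyond array medians (3760), the count over all genes was 4925 without the filter, and the share higher was 39.3% with the percentile over probes detected on all arrays. Fitting every probe alone, an alternative added after the data were seen, reversed the sign of 2 called changes, Nfkb1 with FF (-0.037 on the dimmer probe) and Nfkbib with FF (0.059 on the dimmest). It also turned 2 that were not called, Nfkbib with Dex (0.31 on the dimmest probe, against -0.23) and Relb with VSG22 (-0.061 on the dimmer, against 0.024). None of these probe values was called. With single arrays left out of a group, the lone array was assumed to vary like the other groups.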
